A study of Arabidopsis thaliana with 7 samples.

Results

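The mitochondrial genes cox1 and nad4 are 2 of 13350 genes that a probe set names alone, and each was represented by 1 probe set on the array, out of 22746 probe sets that are not controls. Both were taken because the array's annotation gives each probe set exactly 1 gene of the mitochondrial genome under these names. They were also picked as bright respiratory-chain transcripts whose genotype differences were unlike each other, so their brightness and their differences between genotypes are given here as a description, with no test. Developing seeds of Arabidopsis thaliana at globular to walking-stick embryo stages were taken from wild-type Col plants (n = 4 arrays) and from plants carrying the myb5-1 allele (n = 3 arrays). Plants of both genotypes were raised together on soil in constant light, and each array holds a separate biological replicate of whole seeds freed from the silique. About 100 ng of total RNA per sample was amplified over 2 cycles, each priming cDNA with oligo(dT) and transcribing it in vitro. MYB5 is a MYB transcription factor known from the seed coat, and its own level was not analysed here.

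The inner membrane of plant mitochondria carries an electron transport chain whose core subunits are split between the nuclear and the mitochondrial genome. The gene nad4 encodes a membrane-arm subunit of complex I, the NADH dehydrogenase that feeds electrons into the chain and pumps protons. The gene cox1 encodes the catalytic core subunit of complex IV, cytochrome c oxidase, which passes electrons to oxygen at the end of the chain. Developing seeds respire to fund growth and the deposition of reserves. In Arabidopsis, nad4 transcripts contain group II introns and are spliced and edited by nuclear-encoded factors, while cox1 has no intron. Mature plant mitochondrial mRNAs mostly lack a stable poly(A) tail, and polyadenylation in plant mitochondria marks RNA for decay, so oligo(dT) priming measures these transcripts less directly than it measures nuclear mRNAs. Chromosome 2 of the Col accession holds a large copy of the mitochondrial genome. On this array 11 probe sets name a mitochondrial gene together with a chromosome 2 locus, and although the 2 probe sets described here name 1 gene each, signal from a near-identical nuclear copy cannot be told apart from mitochondrial RNA.

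The arrays themselves differed in median intensity and in marker genes, and the part of this in the cox1 and nad4 values was not tested. Median deposited intensity was 49.0 to 50.8 over wild-type arrays and 52.2 to 54.4 over myb5 arrays, lowest in wild-type replicate 2 and highest in myb5 replicate 2. Wild-type replicates 1 and 2 and myb5 replicate 1 separated from the remaining arrays along the first principal component, which held 56.8% of the variance. Late seed maturation genes followed that split: the storage protein gene PAP85 read 376 to 1979 there and 13.8 to 21.9 elsewhere, and these 2 measured genes of a list of 14 had summed intensities of 836 to 7343 over wild-type arrays and 628 to 5416 over myb5 arrays. Of the seed coat markers, 4 of 8 were measured, with summed intensities of 9665 to 18544 over wild-type arrays and 10105 to 17378 over myb5 arrays. BAN, DFR and ARA12 were bright, and UGT80B1 stood at 193 to 257. The bright ones were lower in the 3 arrays apart, opposite to PAP85. BAN was at 2684 to 3424 there and 4681 to 6754 in the other 4, DFR at 1383 to 2143 and 3906 to 5381. ARA12 was at 5074 to 5586 and 6152 to 7667. Of the endosperm, embryo and fruit wall markers, 3 of 7, 1 of 5 and 1 of 4 were measured; the endosperm genes IKU2 and AGL62 and the embryo gene CLV3 were dim, at mean intensities of 3.32 to 9.56, and 0 markers were listed at 0. The third endosperm gene, AT1G50650, was bright and followed the same split, at 1379 to 2942 in the 3 arrays apart and 195 to 544 in the other 4. The fruit wall gene ALC stood at 49.3 to 117 over wild-type arrays and 70.9 to 120 over myb5 arrays.

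The cox1 probe set was bright in every array and differed widely among arrays of 1 genotype. Its deposited intensity was 617, 1908, 1231 and 997 in wild-type replicates 1 to 4. In myb5 replicates 1 to 3 it was 732, 1208 and 1200. The 3 myb5 values all lay inside the wild-type range, and the highest and the lowest array were both wild type. Mean intensity was 1188 ± 542 (SD, n = 4) over the wild-type arrays and 1047 ± 273 (SD, n = 3) over the myb5 arrays. On the normalized log2(intensity + 16) scale, myb5 minus wild type was -0.05 (standard error 0.36), a fold of 0.963. Within the arrays, cox1 lay at a percentile of 92.6 to 98.1 among all probe sets by intensity. Replicate 1 of both genotypes held the lowest cox1 values, and these 2 arrays belong to the 3 that stood apart, but wild-type replicate 2, also of that set, held the highest.

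The nad4 probe set was higher on average in myb5, with the genotypes overlapping narrowly and 1 array far above the rest. Its deposited intensity was 587, 266, 618 and 383 in wild-type replicates 1 to 4. In myb5 replicates 1 to 3 it was 584, 1578 and 795. Myb5 replicates 2 and 3 lay above every wild-type array, while myb5 replicate 1 lay just below wild-type replicates 1 and 3. Mean intensity was 463 ± 168 (SD, n = 4) over the wild-type arrays and 986 ± 524 (SD, n = 3) over the myb5 arrays. The log2 difference was 1.04 (standard error 0.40), a fold of 2.06. Among all probe sets of an array, nad4 lay at a percentile of 82.6 to 97.9. The array with the lowest nad4, wild-type replicate 2, also had the lowest median intensity, and the array with the highest nad4, myb5 replicate 2, had the highest median intensity. The part of overall array brightness in these values was not tested. The span was present after quantile normalization too, where nad4 was 8.18 in wild-type replicate 2 and 10.70 in myb5 replicate 2 on the normalized log2 scale. In bulk seed RNA, fewer cells of a type, fewer mitochondria and less RNA per cell cannot be told apart.

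**Figure D1:**
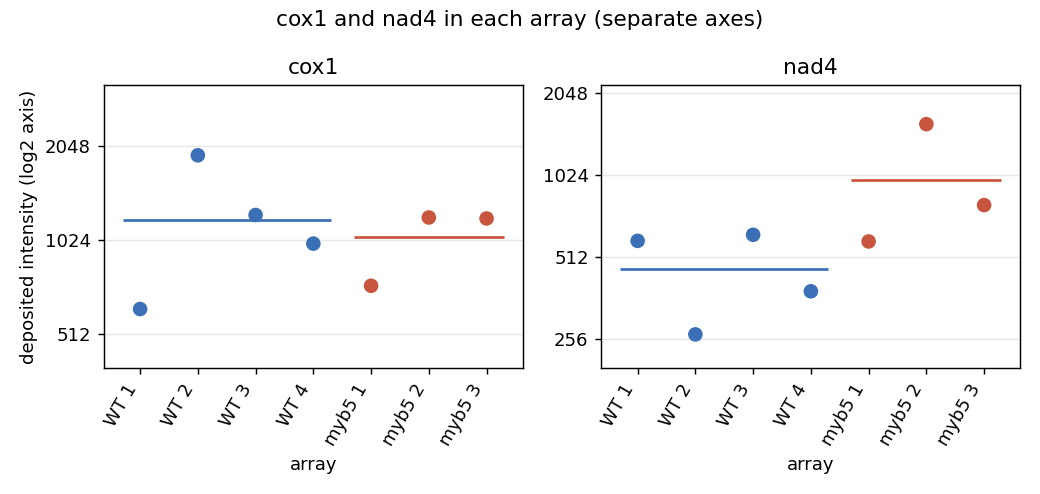
Deposited intensity on a log2 axis for cox1 (left) and nad4 (right) in each of the 7 arrays, blue for wild type (WT) and red for myb5, with a line at each genotype's mean; the axes are separate because levels of different probe sets cannot be compared. The cox1 points of myb5 sit between 732 and 1208, inside the wild-type range of 617 to 1908, while the nad4 points run from 266 in wild-type replicate 2 to 1578 in myb5 replicate 2.

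Both probe sets varied more than most bright probe sets. Among the 2135 probe sets with a mean intensity of at least 500, the median within-genotype SD was 0.26 on the normalized log2 scale. It was 0.55 for cox1, larger than in 85.6% of them, and 0.63 for nad4, larger than in 89.6%. From the lowest to the highest array, cox1 spanned 1.49 and nad4 spanned 2.52 on that scale, against a median span of 0.71. The span of nad4 includes its difference between genotypes, whereas nearly all of the spread in cox1 lay within them.

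The ratio of the 2 probe sets within an array removes any factor that scales both alike, and it varied most among the wild-type arrays. The intensity of cox1 divided by that of nad4 was 1.05, 7.18, 1.99 and 2.60 in wild-type replicates 1 to 4. In myb5 replicates 1 to 3 the ratio was 1.25, 0.766 and 1.51. The size of such a ratio depends on the probes, and only its change from array to array carries meaning. Wild-type replicate 2 stood highest because cox1 was at its highest there and nad4 at its lowest, and myb5 replicate 2 was the only array below 1. On the normalized log2 scale the gap, cox1 minus nad4, averaged 1.26 ± 1.06 (SD, n = 4) over the wild-type arrays and 0.17 ± 0.51 (SD, n = 3) over the myb5 arrays. Myb5 minus wild type was -1.09 (standard error 0.60). Without wild-type replicate 2 the difference in the gap was -0.63. Wild-type replicate 1 had a smaller ratio than myb5 replicates 1 and 3, so the genotypes overlapped. This gap restates the unlike genotype differences for which the genes were picked.

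**Figure D2:**
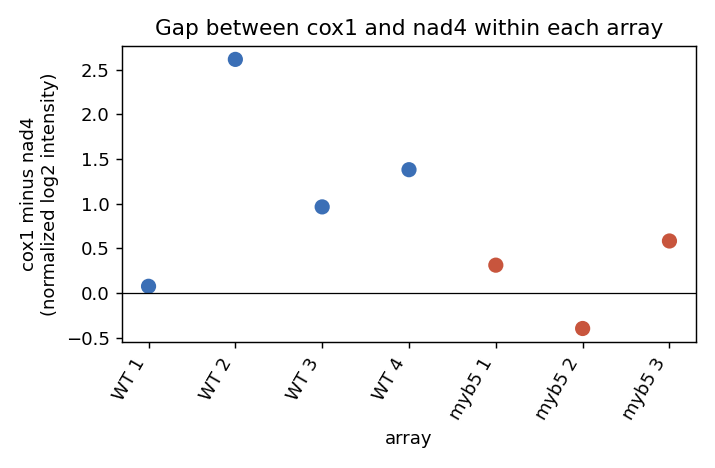
Normalized log2 intensity of cox1 minus that of nad4 within each array, blue for wild type (WT) and red for myb5. The wild-type gaps run from 0.08 to 2.62 and the myb5 gaps from -0.40 to 0.58, with wild-type replicate 1 inside the myb5 range.

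Single arrays set the size of the nad4 difference and the sign of the cox1 difference. The nad4 difference was 0.63 without myb5 replicate 2 and 1.36 without myb5 replicate 1, and it stayed above 0 in all 19 settings tried. Among wild-type replicates 3 and 4 and myb5 replicates 2 and 3 alone it was 1.20, and among the 3 arrays that stood apart it was 0.55, where the lone myb5 array is given the spread of the wild-type pair. The cox1 difference was above 0 in 5 settings and below 0 in 14. It ran from -0.32 without wild-type replicate 1 to 0.19 without myb5 replicate 1, and within the 4-array and 3-array sets it was 0.14 and -0.51. In the limma fit over all probe sets, 1 of 22746 (0.0044%) passed an adjusted p of 0.05, and it was neither cox1 nor nad4. A difference of at least 1 on the log2 scale in favour of myb5 was found for 16 probe sets (0.0703%), nad4 among them. Since both genes were picked on this contrast, nothing is read from these counts.

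**Figure D3:**
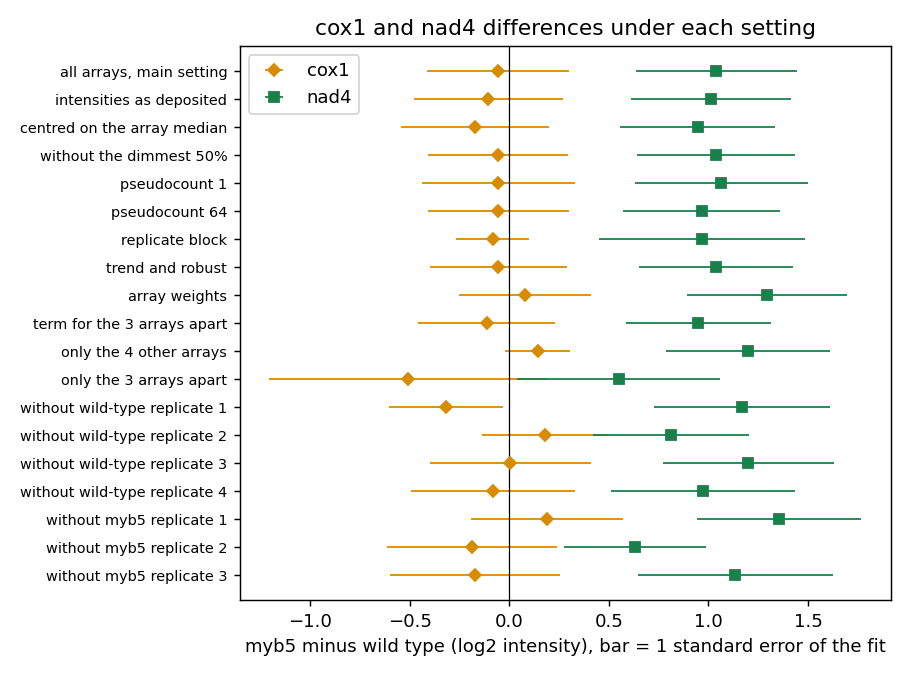
Log2 difference, myb5 minus wild type, of cox1 (diamonds) and nad4 (squares) under each of 19 settings, with bars of 1 standard error. The nad4 points run from 0.55 to 1.36, all above 0, and the cox1 points run from -0.51 to 0.19 on either side of it.

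The other genes of the mitochondrial genome, a compact set whose members serve respiration, cytochrome c maturation, protein export and translation, had 21 probe sets naming 1 gene, for 14 genes. None passed the threshold in either direction (adjusted p = 1.00 for each of the genes named with a p here, limma), while 4 had an unadjusted p under 0.05, against 3.46% of all probe sets. The median log2 difference was 0.32, beside -0.00035 over all probe sets, and 17 of 21 were above 0, against 49.9% of all probe sets. These genes were chosen with earlier results of the same arrays known. The median was smaller without myb5 replicate 2, at 0.15, and with an added constant of 64, at 0.17. It was larger with a constant of 1, at 0.59, and without the dimmest 50% of probe sets, at 0.72 over the 6 left. It stayed above 0 in all 19 settings.

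Among the other complex I genes, 14 probe sets covered 7 genes, and 0 passed. The smallest unadjusted p belonged to nad9, which encodes a subunit of the peripheral arm. Its intensity was 63.7, 53.2, 93.4 and 65.6 in wild-type replicates 1 to 4 and 81.4, 187 and 116 in myb5 replicates 1 to 3. The genotypes overlapped, and the order of the arrays resembled that of nad4, with wild-type replicate 2 lowest and myb5 replicate 2 highest. The nad9 log2 difference was 0.68 (standard error 0.26) (adjusted p = 1.00, limma). The membrane-arm genes nad4L, nad6 and nad2 had log2 differences of 0.33, 0.27 and 0.13, and the peripheral-arm gene nad7 had -0.17. The 2 probe sets of nad5, another membrane-arm subunit, had 0.41 and 0.32, and 7 probe sets of nad1, whose transcript is joined from separately encoded parts, ran from -0.04 to 0.49. Of those 7, the one with the smallest unadjusted p had an intensity of 12.7 ± 3.66 (SD, n = 4) over the wild-type arrays. Over the myb5 arrays it was 24.5 ± 8.30 (SD, n = 3), a log2 difference of 0.41 (adjusted p = 1.00, limma). Its deposited intensities did not overlap between genotypes, as for 3.31% of all probe sets in that direction. On the normalized log2 scale they did overlap, with 5.10 in wild-type replicate 1 and 5.03 in myb5 replicate 3.

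Of the other mitochondrion-encoded subunits of complexes III and IV, cob, cox2 and cox3, only cox2 had a probe set naming 1 gene. The gene cox2 encodes the subunit that receives electrons from cytochrome c. Its intensity was 9.02, 11.4, 20.3 and 17.3 in wild-type replicates 1 to 4 and 23.5, 45.1 and 24.1 in myb5 replicates 1 to 3. Every myb5 array lay above every wild-type array, at levels near the added constant of 16, and the log2 difference was 0.54 (standard error 0.21) (adjusted p = 1.00, limma). Across the 21 probe sets, 3 were higher in myb5 without overlap in deposited intensity and 0 were lower, against 3.31% and 1.57% of all probe sets. These 3 were cox2 and 2 probe sets of nad1, all dim, with means of 9.27 to 21.5 over all arrays, around the added constant. Among them, the nad1 probe set of smallest unadjusted p overlapped between genotypes on the normalized log2 scale. So within complex IV the cox2 probe set had a difference above 0 that did not pass, and the cox1 probe set one near 0; the difference between them was not tested.

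In the gene table of the mitochondrial genome, the named protein-coding neighbours of nad4 are ccmFC and mttB, and those of cox1 are a part of nad1 and rps4. The gene ccmFC encodes part of the machinery that attaches haem to cytochrome c, and mttB, called orfX on the array, encodes a relative of bacterial twin-arginine translocase subunits. For ccmFC the intensity was 142, 109, 247 and 154 in wild-type replicates 1 to 4 and 201, 424 and 257 in myb5 replicates 1 to 3, a log2 difference of 0.78 (adjusted p = 1.00, limma). For mttB it was 295, 228, 683 and 254 in wild type and 478, 837 and 522 in myb5, differing by 0.83 on the log2 scale (standard error 0.39). Both neighbours of nad4 had their lowest value in wild-type replicate 2 and their highest in myb5 replicate 2, as nad4 did, and neither passed. The same lowest and highest arrays were found for ccmFN1, nad9, nad4L and nad6, and among the probe sets of nad1 and nad5. The pattern was thus not particular to the neighbours of nad4. Beside cox1, mitochondrial rps4 had no probe set naming 1 gene. The 7 nad1 probe sets each had their highest deposited intensity in myb5 replicate 2 or 3, while cox1 was highest in wild-type replicate 2. Their lowest arrays differed, and some shared wild-type replicate 1 with cox1. Which of them reads the part of nad1 beside cox1 was not determined. Another haem-attachment gene, ccmFN1, had 395, 127, 234 and 234 in wild type and 410, 565 and 281 in myb5, differing by 0.77 on the log2 scale (adjusted p = 1.00, limma). The transporter subunit gene ccmB differed by 0.0024, ccmFN2 had -0.17 and the maturase gene matR had -0.15, the last 2 at mean intensities of 12.3 to 15.5.

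**Figure D4:**
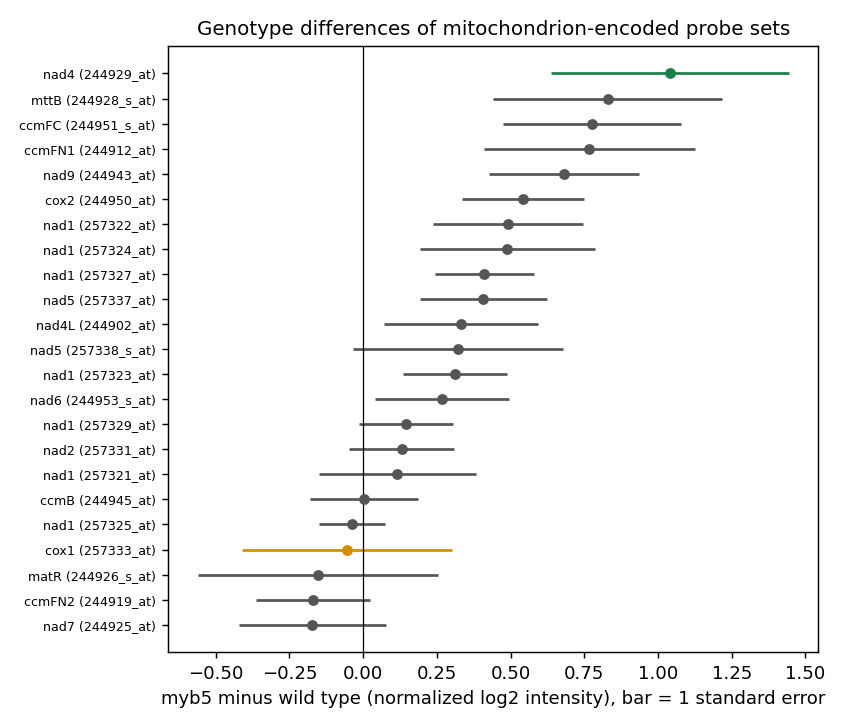
Log2 difference, myb5 minus wild type, for the 23 mitochondrion-encoded probe sets naming 1 gene, sorted, with bars of 1 standard error of the limma fit. The nad4 probe set (green) lies at 1.04, cox1 (orange) at -0.05, and the other 21 between -0.17 and 0.83.

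Set against the same genes array by array, nad4 followed the direction of the others and cox1 did not in wild-type replicate 2. Each probe set was taken as its deviation from its own mean over the 7 arrays on the normalized log2 scale. In myb5 replicate 2 the median deviation of the 21 others was 0.53, that of nad4 was 1.42 and that of cox1 was 0.23. In wild-type replicate 2 the median of the others was -0.38, nad4 was at -1.10 and cox1 at 0.72. The others' values in wild-type replicate 2 ran from -1.05 to 0.32, so nad4 lay below all of them and cox1 above all of them. In wild-type replicate 1, cox1 lay at -0.77, below all 21 others, whose lowest was -0.57. By deposited intensity, myb5 replicate 2 held the highest value of 16 of the 21, against 18.8% of all probe sets. Wild-type replicate 2 held the lowest deposited value of 9, against 19.9%. These arrays also had the highest and the lowest median intensity, and the part of overall array brightness in the counts was not tested. Of the 14 with a mean intensity of at least 16, 13 were highest in myb5 replicate 2 by deposited intensity. On the normalized log2 scale, 0 of 14 were above their own mean in wild-type replicate 2. In myb5 replicate 1 the median deviation of the others was -0.05.

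**Figure D5:**
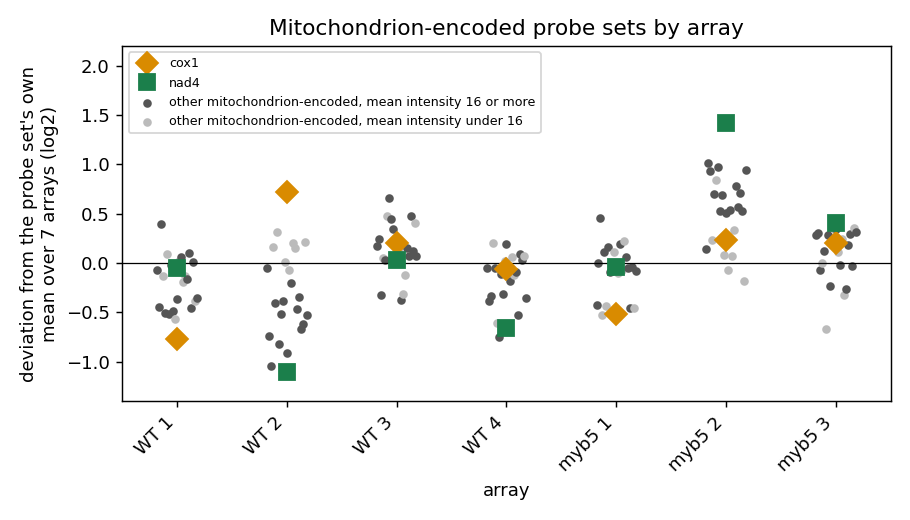
Deviation of each mitochondrion-encoded probe set from its own mean over the 7 arrays (normalized log2), by array, with cox1 as diamonds, nad4 as squares, and the 21 other probe sets as points, dark for the 14 with a mean intensity of at least 16. In wild-type replicate 2 cox1 lies at 0.72 above all others and nad4 at -1.10 below them; in myb5 replicate 2 nad4 lies at 1.42.

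Technical measures are given beside the 2 arrays in which nad4 was most extreme. Control pairs give a 5'/3' intensity ratio, a measure that falls with RNA breakdown or short products, and 6 pairs were read. For Actin it was lowest of all arrays in wild-type replicate 2, at 0.0112, and highest in myb5 replicate 2, at 0.0233, against 0.0113 to 0.0166 in the other 5, so it was extreme in the same 2 arrays and directions as nad4. For ubiquitin it was also lowest in wild-type replicate 2, at 0.136, with 0.146 in myb5 replicate 2 and 0.148 to 0.189 in the others. For GAPDH it ran the other way, at 0.204 in wild-type replicate 2 and 0.081 in myb5 replicate 2. GAPDH also followed the 3-array split, with 0.156 to 0.208 in the 3 arrays apart and 0.081 to 0.093 in the other 4. The second pairs for Actin, ubiquitin and GAPDH had both arrays inside the range of the others: 0.153 and 0.134 for Actin, 0.320 and 0.325 for ubiquitin, and 0.552 and 0.516 for GAPDH, in wild-type and myb5 replicate 2. The control probe set for 25S ribosomal RNA, which like mitochondrial RNA lacks a stable poly(A) tail, was highest in wild-type replicate 2 at 5955 and stood at 5052 in myb5 replicate 2, within 4224 to 5955 over all arrays. The control for 5S ribosomal RNA was dim and went the other way, at 4.38 in wild-type replicate 2 and 19.2 in myb5 replicate 2, within 1.55 to 26.3 over all arrays. The part of RNA quality in the cox1 and nad4 values was not tested.

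Nuclear genes for the same chain had a median difference near that of all probe sets. Of 56 nuclear-encoded subunits and assembly factors listed for complexes I to IV, cytochrome c and the ATP synthase, 25 were measured by 26 probe sets, and 0 passed in limma or had an unadjusted p under 0.05. Their median log2 difference was -0.03, beside -0.00035 over all probe sets, and 11 of 26 were above 0. The sign of that median was not stable: leaving out wild-type replicate 3 or myb5 replicate 1 gave 0.05 in each case, leaving out myb5 replicate 2 gave 0.0011, and the 4 arrays alone gave 0.01. It was lower when arrays were centred on their median (-0.13, beside -0.03 over all probe sets), in the 3 arrays apart (-0.09) and without myb5 replicate 3 (-0.07). For complexes II and III the median was -0.09, with 1 of 9 probe sets above 0, and it was below 0 in every setting. In complex I, GLDH, a galactono-lactone dehydrogenase needed for the assembly of the membrane arm, had 193 ± 39.5 (SD, n = 4) over the wild-type arrays and 244 ± 40.3 (SD, n = 3) over the myb5 arrays, differing by 0.30 on the log2 scale (adjusted p = 1.00, limma). The complex I genes AT4G02580 and FRO1, which encode subunits of the peripheral arm, had log2 differences of -0.17 and -0.05. FRO1 was at 690 to 934 over wild-type arrays and 650 to 908 over myb5 arrays, so its arrays spanned far less than those of nad4.

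Of 19 nuclear genes listed for complex IV and cytochrome c, 10 were measured and 0 passed, with a median log2 difference of 0.06. Its sign was not stable: leaving out 1 array gave -0.07 (myb5 replicate 3), 0.00079 (wild-type replicate 1), 0.09 (wild-type replicate 3 or 4), 0.10 (myb5 replicate 2) or 0.21 (myb5 replicate 1). The 3 arrays apart gave -0.07, centring on the array median -0.01, the replicate block 0.10 and leaving out the dimmest 50% of probe sets 0.03. AT3G62400, a small COX5C-type subunit of complex IV, had the smallest unadjusted p of that list. Its intensity was 709, 916, 1103 and 1263 in wild-type replicates 1 to 4 and 983, 1365 and 1686 in myb5 replicates 1 to 3, differing by 0.46 on the log2 scale (standard error 0.26) (adjusted p = 1.00, limma). AT1G53030, a COX17-type copper chaperone gene, had 0.23 (adjusted p = 1.00, limma). CYTC-1 and CYTC-2, the genes of cytochrome c that passes electrons to complex IV, had -0.03 and -0.19. AT1G80230, a COX5B-type subunit, was at 345 to 455 over wild-type arrays and 352 to 429 over myb5 arrays, and wild-type replicate 2, where cox1 was highest, lay inside that range at 395. In complex II, SDH2-1 and SDH2-2, iron-sulphur subunits of succinate dehydrogenase, had -0.11 and -0.18, and the ATP synthase genes AT1G51650 and AT5G47030 had 0.17 and 0.08 (adjusted p = 1.00 for each, limma).

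Genes of alternative respiration and of mitochondrial gene expression were measured in part. Of 13 genes for alternative oxidases, alternative NAD(P)H dehydrogenases and an uncoupling protein, 5 were measured and 0 passed or had an unadjusted p under 0.05. NDB2 is an external NADH dehydrogenase that bypasses complex I. Its intensity was 109 ± 16.5 (SD, n = 4) over the wild-type arrays. Over the myb5 arrays it was 85.0 ± 9.44 (SD, n = 3). Its deposited intensities were lower in myb5 without overlap, as for 1.57% of all probe sets. On the normalized log2 scale the genotypes did overlap, with 6.74 in wild-type replicate 4 and 6.76 in myb5 replicate 1. The NDB2 log2 difference was -0.34 (adjusted p = 1.00, limma). NDB1, of the same family, had -0.13 (adjusted p = 1.00, limma). Of 20 genes for transcription, RNA processing and DNA upkeep in mitochondria, 5 were measured and 0 passed or had an unadjusted p under 0.05. OSB1, a DNA-binding protein that restrains mitochondrial recombination, had 51.6 ± 12.6 in wild type and 68.7 ± 9.32 in myb5, differing by 0.29 on the log2 scale (adjusted p = 1.00, limma). AT5G14580, the mitochondrial polynucleotide phosphorylase that degrades polyadenylated RNA, had 25.1 ± 6.43 and 33.8 ± 16.6, differing by 0.17 on the log2 scale (adjusted p = 1.00, limma), with its highest value, 52.9, in myb5 replicate 2. AT5G46920, the splicing factor nMAT2, had 0.16. The RNA polymerase gene AT5G15700, RPOTmp, was dim at 3.86 to 31.7 and had -0.18.

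The plastid genome, the other organellar genome measured through the same priming, had 28 of 32 listed genes measured; 0 passed and 5 had an unadjusted p under 0.05 in limma, against 3.46% of all probe sets. The median log2 difference was 0.19, with 21 of 28 above 0, against 49.9% of all probe sets. It was smaller, though above 0, when arrays were centred on their median (0.07, 18 of 28) or when myb5 replicate 1 (0.09, 17 of 28), wild-type replicate 4 (0.10) or myb5 replicate 2 (0.11) was left out. With the replicate block and in the 3 arrays apart it was 0.10 in each case. The genes rps3 and ndhA, for a ribosomal protein and an NDH subunit, had 0.71 and 0.51 without overlap between genotypes (adjusted p = 1.00 for each, limma). Of the 28, 5 were higher in myb5 without overlap in deposited intensity and 0 were lower, against 3.31% and 1.57% of all probe sets. Median deposited intensity was itself higher in every myb5 array than in every wild-type array, and its part in that count was not tested.

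The genes most like each probe set over the 7 arrays were sought among 4429 probe sets naming 1 gene with a mean intensity of at least 100, by Pearson's r on the normalized log2 scale. With 7 arrays that fall into sets of 3 and 4 this is a ranking and no test. For cox1 the nearest were AT3G29230 (r = 0.979), AT4G38020 (0.971), AT5G22440 (0.969), AT2G45730 (0.943) and MAC3A (0.941), a ubiquitin ligase gene of a spliceosome-associated complex. They share the low values of replicate 1 in both genotypes, over smaller ranges: AT3G29230 was at 94.2 and 116 there, and at 131 to 158 in the other 5 arrays. For nad4 the nearest were BZIP17 (r = 0.972), a membrane-anchored stress transcription factor gene, AT3G19240 (0.968), AT5G06130 (0.961), AT5G48650 (0.958) and AT2G29210 (0.957). BZIP17 was lowest in wild-type replicate 2 at 176 and highest in myb5 replicate 2 at 293, with 216 to 233 in the other 5 arrays, a far smaller span than that of nad4. All 10 are nuclear genes on chromosomes 1 to 5. Of the other mitochondrial probe sets, only ccmFC, ccmFN1 and mttB reached a mean intensity of 100 and were candidates. The rest, among them nad9 at 94.4, were left out, so the ranking cannot show whether they lay nearer.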

How the data were processed

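The deposited values were intensities, linear signals per probe set for 7 arrays; their software: not given in the sources used here. A trimmed mean of 150.01 was found in each array, so the authors had scaled the arrays before they deposited the intensities. The 64 control probe sets were left out. Intensities were turned into log2(intensity + 16), quantile normalized and compared with limma (version 3.58.1, R 4.3.3) over 22746 probe sets, genotype as the only term, Benjamini-Hochberg adjustment over all, threshold 0.05. Such differences understate changes of dim probe sets, the number of arrays limits the precision, and no detection call was used. The fit was tested on simulated data with independent noise for each probe set and no split between arrays, so that test does not cover the split seen here. Of the probe sets, 13513 named exactly 1 gene, 503 several and 8730 are unnamed here. Symbols of the 23 mitochondrial probe sets were brought up to date by symbol or synonym. No sequence is shown. Members, lists and tests were chosen with earlier results of these data known. Named genes were all measured mitochondrial ones, in other lists the 2 of smallest unadjusted p, and by likeness the 5 nearest. FRO1, CYTC-1, CYTC-2, AT1G80230, AT5G46920, AT5G15700, AT1G50650, DFR and ARA12 were added after their values were seen.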

Additional observations from a re-analysis of the deposited data

Results flagged for a closer look

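In the wild-type group, 45 probe sets, of the mitochondrion-encoded genes and of the list genes named by smallest unadjusted p, were searched for an array far from the other 3. Of these, 6 had one, where chance gives about 1 in 20, and the probe sets are not independent. Neither cox1 nor nad4 was among them. On the normalized log2 scale, nad6 lay at 4.97 in wild-type replicate 2, below 5.59 to 5.71 in the others, and nad2 lay at 5.07 in that array, above 4.79 to 4.80. The ccmB probe set lay at 6.0 in wild-type replicate 3, above 5.75 to 5.78. One of the 7 nad1 probe sets lay at 4.06 in wild-type replicate 1, below 4.63 to 4.65, at an intensity of 0.626. IKU2 lay at 4.68 in wild-type replicate 3, above 4.26 to 4.33, and CLV3 at 4.11 in the same array, below 4.50 to 4.55.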

How the results depend on the processing

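The count of 1 called probe set, 0 higher and 1 lower in myb5, was 2 (1 higher) without the dimmest 50% of probe sets. It was 0 with 0 lower with the replicate number as a block, in the 4 arrays alone and in the 3 arrays alone, which hold fewer samples or residual degrees of freedom. Without single arrays the count lay between 1 and 2, with 0 to 1 higher. With the replicate block cox1 was at -0.08 and nad4 at 0.97. Deviations of same-numbered replicates correlated at 0.63, -0.30 and 0.55, so the numbers are not taken to pair the samples. Across the settings other than leaving out an array, nad4 ran from 0.55 to 1.29, cox1 from -0.51 to 0.14 and the gap between them from -1.22 to -1.02. Leaving out each array gave 0.63 to 1.36 for nad4, -0.32 to 0.19 for cox1 and -1.49 to -0.63 for the gap. No list had a member called under any setting. For 43 other probe sets, 737 of 754 values stayed within 1 SD between replicates. The cause of the moves was not tested.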
